A study of Mus musculus with 8 samples.

Results

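The receptors RANK (*Tnfrsf11a*), CD40 (*Cd40*) and lymphotoxin β receptor (*Ltbr*), the RANK ligand decoy receptor *Tnfrsf11b*, the costimulatory ligand *Cd80* and the signal carriers *Traf2*, *Traf3*, *Traf6*, *Map3k14* and *Chuk* were followed by RNA-Seq in a mouse medullary thymic epithelial cell (mTEC) line. These 10 genes were chosen by name from the 24052 gene symbols counted, with earlier results of these data known. Of them, 6 had enough counts to be tested. The study compared mTEC 3.10 cells, a C57BL/6 line labelled wildtype (WT), with E6, a clone of that line whose *Aire* gene was cut with CRISPR-Cas9, each before and after thymocyte adhesion, in 4 groups of 2 libraries. For E6 the labels read Aire KO in the source name and Aire +/- as genotype, whereas the study's methods describe small mutations in both *Aire* alleles, and as E6 is 1 clone the mutation cannot be told apart from other differences between clones. All cells were at passage 2. For adhesion, 50 thymocytes of C57BL/6 mice were added per mTEC for 12 h, adherent thymocytes were then washed off and the mTEC cells were collected by trypsin. Culture time before that was given as 24 h for E6 before adhesion replicate 1, E6 after adhesion replicate 1 and WT after adhesion replicate 2, and as 12 h for the other 5 libraries. The protocol text of the E6 libraries before adhesion also mentions co-culture, against their titles and source names, which were followed here. No label says that replicates came from separate cultures, so the p-values measure the spread between these libraries, which may be technical.

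RANK, CD40 and the lymphotoxin β receptor are receptors of the tumor necrosis factor receptor family through which lymphoid cells drive the growth and maturation of mTECs, including the appearance of AIRE. All act on the noncanonical NF-κB pathway, in which TRAF3 and TRAF2 with the ubiquitin ligases cIAP1 and cIAP2 keep the kinase NIK (*Map3k14*) at a low level. When a receptor binds its ligand this hold is lifted, NIK activates IKKα (*Chuk*), and IKKα leads to the processing of the *Nfkb2* product, which enters the nucleus with RelB. TRAF6 carries RANK and CD40 signals to the canonical branch, and CD80 is a ligand of CD28 that marks mature mTECs.

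Each library held between 13506610 and 20145154 counts on genes, with a median of 16312268.5, so that 3 counts in a library correspond to 0.145 to 0.221 CPM. Levels are given as CPM, which is the count divided by the TMM-scaled library size and multiplied by 1000000. The library of WT after adhesion replicate 1 stood apart, since genes took 66.71% of its reads, compared with 75.71% to 78.76% in the other 7, and its log2 levels fell by 0.452 per 10% of GC content against slopes of -0.019 to 0.136. Values without it are given beside many of the results, but not for each gene of the pathway list whose call changed. The epithelial genes *Epcam*, *Cdh1*, *Krt8*, *Krt18* and *Krt14* were abundant, their summed level with *Krt5* and *Foxn1* being 3993 to 5244 CPM. *Foxn1*, the transcription factor of thymic epithelium, had 161 to 277 counts per library and *Krt5*, a medullary keratin, 3 to 21 counts. *Aire* itself had 3 counts in each of 2 libraries, WT and E6 after adhesion replicates 2, and 0 in the other 6, so these libraries cannot check the mutation by its mRNA level. The 17 thymocyte genes of a list of 25 that were analysed here summed to 0.268 to 1.04 CPM before adhesion, to 12.5 to 16.5 CPM in WT after adhesion and to 91.0 to 113 CPM in E6 after adhesion. In these bulk samples fewer cells of a type and less RNA per cell cannot be told apart.

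The promoters of 4 genes are shown because they pair the receptor with the most mRNA (*Ltbr*) and the adaptor with the only difference past the FDR limit (*Traf3*) with a receptor (*Tnfrsf11a*) and a costimulatory ligand (*Cd80*) that had almost no counts. Each run of 300 bases reads 5′ to 3′ on the gene's strand, from 250 bases before the RefSeq start to 50 after it on GRCm38.p6, and capitals mark CpG dinucleotides.
Ltbr (chr6:125313836-125314135, minus strand): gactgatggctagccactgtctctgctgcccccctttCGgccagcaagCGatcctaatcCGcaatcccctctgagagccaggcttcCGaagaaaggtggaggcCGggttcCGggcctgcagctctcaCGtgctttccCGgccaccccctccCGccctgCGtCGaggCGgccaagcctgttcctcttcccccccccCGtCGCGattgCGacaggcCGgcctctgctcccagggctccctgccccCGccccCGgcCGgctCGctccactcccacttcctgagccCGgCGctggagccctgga
Traf3 (chr12:111166120-111166419, plus strand): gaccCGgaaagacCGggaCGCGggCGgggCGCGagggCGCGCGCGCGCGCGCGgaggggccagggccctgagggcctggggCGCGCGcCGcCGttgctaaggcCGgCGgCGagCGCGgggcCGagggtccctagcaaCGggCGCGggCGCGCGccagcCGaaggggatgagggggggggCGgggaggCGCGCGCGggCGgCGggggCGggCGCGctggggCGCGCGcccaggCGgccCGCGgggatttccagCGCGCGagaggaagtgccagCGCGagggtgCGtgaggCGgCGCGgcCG
Tnfrsf11a (chr1:105780473-105780772, plus strand): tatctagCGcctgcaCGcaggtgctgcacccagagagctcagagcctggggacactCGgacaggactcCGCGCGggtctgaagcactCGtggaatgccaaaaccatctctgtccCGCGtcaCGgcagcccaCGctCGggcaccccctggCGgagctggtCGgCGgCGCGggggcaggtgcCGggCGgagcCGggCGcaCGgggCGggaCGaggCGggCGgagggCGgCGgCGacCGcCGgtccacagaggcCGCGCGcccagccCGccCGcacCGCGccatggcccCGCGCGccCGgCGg
Cd80 (chr16:38458683-38458982, plus strand): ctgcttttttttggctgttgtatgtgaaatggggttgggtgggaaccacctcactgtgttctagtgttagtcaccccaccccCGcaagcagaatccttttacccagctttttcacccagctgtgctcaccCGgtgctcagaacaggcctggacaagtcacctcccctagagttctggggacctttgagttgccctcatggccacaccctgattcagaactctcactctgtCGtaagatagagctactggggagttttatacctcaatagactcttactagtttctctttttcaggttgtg

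RefSeq held such a promoter for 8 of the 10 genes. The *Ltbr* promoter had 23 CpGs and that of *Traf3* 59, against a median of 21 with quartiles of 12 and 29 over 11367 promoters of tested genes. *Traf2*, *Traf6*, *Map3k14* and *Chuk* had 28, 19, 25 and 21 CpGs. The *Cd80* window had 3 CpGs. Over 3140 promoters of genes with counts that, like *Cd80*, were not tested, the median was 7 with quartiles of 3 and 18. Over 5771 promoters of genes without a count it was 3. The *Cd80* window begins at base 38458683, inside the gene as GENCODE places it, from base 38455561. The sequence at that earlier start was not examined, so the 3 CpGs describe the RefSeq window only. *Tnfrsf11a*, with 0 counts in 6 of 8 libraries, had 43. The κB consensus, the motif that NF-κB dimers bind, was searched on both strands and matched in 1 of the 8, the *Traf3* promoter, as GGGGATTTCC on the sense strand from 10 bases before the start. It matched in 4.51% of 32851 promoters of this length. A match describes the letters only, and its absence from the other windows says nothing of the factor.

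Per length of exon, the receptor *Ltbr* was the most abundant of the 10 mRNAs, with a mean of 58.2 RPKM (SD 4.12, n = 8 libraries) and a range of 50.3 to 63.0 RPKM. *Traf3* followed at 15.0 RPKM (SD 2.92, n = 8) and *Chuk* at 14.9 RPKM (SD 0.870, n = 8), and these neighbours did not differ beyond their spread, since the range of *Chuk*, 13.6 to 16.1 RPKM, lay within that of *Traf3*, 11.4 to 19.8 RPKM. *Traf6* at 6.42 RPKM (SD 0.747, n = 8) and *Traf2* at 5.80 RPKM (SD 1.65, n = 8) overlapped in the same way. *Map3k14*, the kinase that the pathway keeps low as a protein, had a mean of 3.08 RPKM (SD 0.778, n = 8), and its range of 2.16 to 4.75 RPKM overlapped that of *Traf2*, 3.17 to 8.10 RPKM, but not that of *Traf6*, 5.80 to 8.12 RPKM. The other 4 genes reached at most 0.0848 RPKM in any library. The order was thus 1 receptor well above the adaptors and kinases, and the RANK, CD40 and CD80 mRNAs at or near 0.

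*Ltbr*, the receptor for lymphotoxin α1β2 and LIGHT, varied by a factor of 1.25 between its lowest and highest library. Its level was 118.4 and 128.9 CPM in WT before adhesion, 142.4 and 141.0 CPM in WT after adhesion, 148.3 and 145.2 CPM in E6 before adhesion and 136.6 and 134.9 CPM in E6 after adhesion. Both WT libraries before adhesion were below all 6 others. Before adhesion E6 exceeded WT by 0.25 on the log2 scale (SE 0.10), which did not pass the edgeR quasi-likelihood test (FDR = 0.220). After adhesion the difference was -0.06 (SE 0.10, FDR = 0.720). The after-against-before change of *Ltbr* was 0.20 (SE 0.10) in WT and -0.11 (SE 0.10) in E6. The difference of these changes was -0.31 (SE 0.15, FDR = 0.988) by the interaction term. The FDR of the difference before adhesion was 0.00193 and 0.00194 without WT after adhesion replicates 1 and 2 in turn and 0.00355 with only the 4 libraries before adhesion, at log2 differences of 0.25, 0.25 and 0.24, all under the fold limit. The change in WT, 0.19 without replicate 2, then had an FDR of 0.0313 and the difference of the changes, -0.29, an FDR of 0.0149. The tested genes whose log2 CPM followed that of *Ltbr* most closely over the 8 libraries were *Mesdc1* (Pearson r = 0.97), *Tmem238* (r = 0.962) and *Opn3* (r = 0.956), chosen from 11671 genes and given as a description. For example, *Mesdc1* had 13.7 and 15.3 CPM in WT before adhesion against 18.6 to 24.4 CPM in the other 6 libraries.

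*Tnfrsf11a*, the receptor for RANK ligand, had 2 and 6 counts in E6 after adhesion and 0 counts in each of the other 6 libraries. The 8 counts of E6 after adhesion are a group level of 0.239 CPM, with an exact 95% Poisson interval of 0.103 to 0.471 CPM that covers counting error only. *Tnfrsf11b*, which encodes osteoprotegerin, the soluble decoy that takes up RANK ligand, had 1 and 4 counts in E6 after adhesion and again 0 in the other 6. *Cd40* had 2 and 3 counts in E6 after adhesion and 0 in the other 6. So the 2 libraries of E6 after adhesion were the ones in which these 3 receptors were seen at all. *Tnfrsf11b* and *Cd40* each had a group level of 0.150 CPM there, with an interval of 0.0485 to 0.349 CPM. With 3 counts over the group as the floor, a 0 allows up to 0.0999 CPM in WT before adhesion, 0.0863 CPM in WT after adhesion and 0.0907 CPM in E6 before adhesion. Divided by this floor, the counted level of *Tnfrsf11a* in E6 after adhesion gave 2.64 against E6 before adhesion and 2.77 against WT after adhesion. For *Tnfrsf11b* and *Cd40* these quotients were 1.65 and 1.73. They are not lower bounds, since they leave out the counting error of the E6 level. The 95% intervals of the 0 counts reach 0.1115 CPM in E6 before adhesion and 0.1061 CPM in WT after adhesion. The intervals of all 3 genes in E6 after adhesion overlap these.

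*Cd80* had 1 and 1 counts in WT before adhesion, 3 and 0 counts in WT after adhesion, 1 and 2 counts in E6 before adhesion and 3 and 4 counts in E6 after adhesion. Its libraries overlapped between groups, and the ratio of E6 after to E6 before adhesion was 2.31, with an exact counting interval of 0.527 to 13.8. None of these 4 genes passed the filter on low counts, and none was tested. The sum of the thymocyte genes was also highest in E6 after adhesion, at 91.0 to 113 CPM. In WT after adhesion it was lower, at 12.5 to 16.5 CPM. The 10 genes of dendritic cells and macrophages summed to 63.6 to 69.7 CPM in WT before adhesion and 48.3 to 68.3 CPM in WT after adhesion. In E6 they summed to 47.4 to 58.6 CPM before and 57.7 to 60.6 CPM after adhesion. The whole list was thus not highest in E6 after adhesion. Most of that sum was *Csf1r*, at 39.2 to 65.9 CPM. The 7 genes of the list with at most 2 counts in each library before adhesion, a choice made from these values, include *Lyz2*, *C1qa* and *Itgax* and summed to 0.0 to 0.139 CPM before adhesion, to 1.35 to 1.89 CPM in WT after adhesion and to 8.78 to 12.6 CPM in E6 after adhesion. The 6 B cell genes summed to at most 0.778 CPM in any library, with *Ms4a1* and *Pax5* at 0 counts in all 8 libraries. CD40 and CD80 are known on dendritic cells and B cells, and RANK on dendritic cells. The part of such cells in these counts was not tested.

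**Figure D1:**
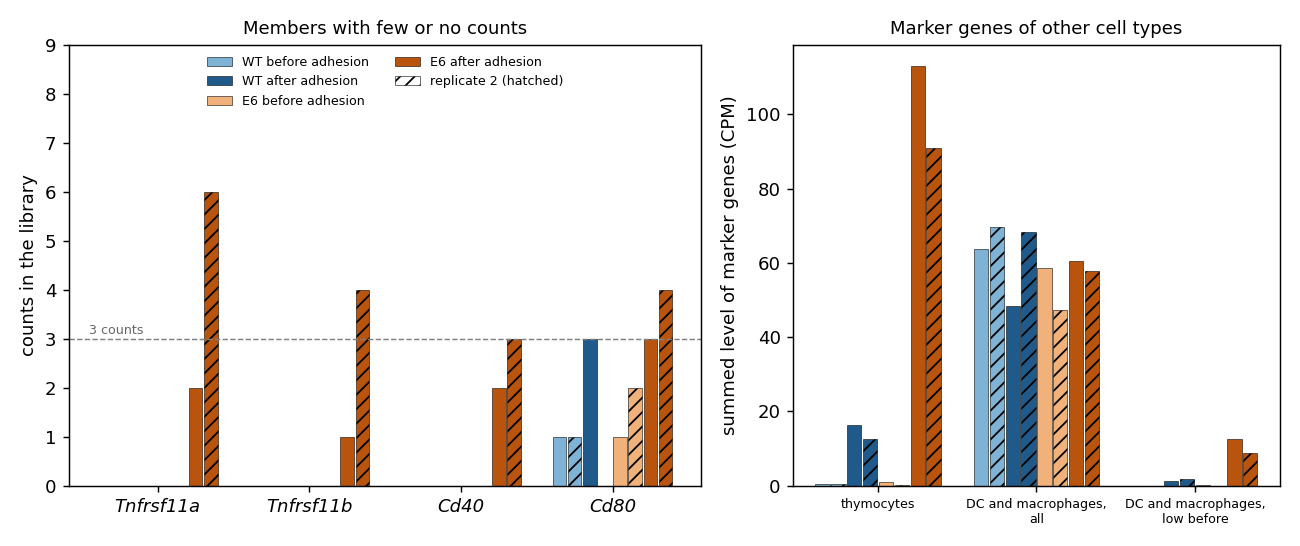
Left, counts per library of the 4 members that passed no filter, with a dashed line at 3 counts. Right, the summed CPM of 17 thymocyte genes, of all 10 genes of dendritic cells (DC) and macrophages and of the 7 of these with at most 2 counts in each library before adhesion, hatched for replicate 2. *Tnfrsf11a*, *Tnfrsf11b* and *Cd40* have bars in E6 after adhesion and none in the other 6 libraries. The thymocyte sum and the sum of the 7 genes are highest in E6 after adhesion, while the sum of all 10 DC and macrophage genes is not.

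Among the adaptors, *Traf3*, which recruits NIK for degradation, was the member with the lowest FDR between the cell types. Its level was 94.2 and 91.8 CPM in WT before adhesion and 84.0 and 104.7 CPM in WT after adhesion. In E6 it was 114.0 and 110.7 CPM before adhesion and 145.6 and 135.5 CPM after adhesion. All 4 E6 libraries lay above all 4 WT libraries. Averaged over both conditions, *Traf3* was 1.34-fold higher in E6, with a log2 difference of 0.42 (SE 0.09, FDR = 0.0191). After adhesion it was 1.49-fold higher (log2 difference 0.57, SE 0.13, FDR = 0.0374) and before adhesion 1.21-fold higher (0.27, SE 0.13, FDR = 0.291). The first and the second passed the FDR limit of 0.05 but lay under the 1.5-fold limit that the study sets for a differentially expressed (DE) mRNA. In the averaged comparison 20.9% of all tested genes passed the FDR limit, after adhesion 10.3% and before adhesion 5.72%. From before to after adhesion *Traf3* changed by 0.32 in E6 (SE 0.13, FDR = 0.652) and by 0.02 in WT (SE 0.13, FDR = 0.945), and these changes differed by 0.30 (SE 0.19, FDR = 0.988). The change in E6 was 0.35 with only the 4 E6 libraries (FDR = 0.00139), 0.35 without WT after adhesion replicate 1 (FDR = 0.000272) and 0.33 without replicate 2 (FDR = 0.000428), all under the fold limit, and the difference of the changes was 0.49 without replicate 2 (FDR = 0.000311). The difference before adhesion stayed at 0.27 in 3 such fits, with an FDR of 0.00111 and 0.00106 without these WT libraries in turn and of 0.00135 with only the 4 libraries compared. Leaving out WT after adhesion replicate 1 gave 0.36 for the averaged difference (FDR = 1.46e-06), and leaving out replicate 2 of that group 0.52 (FDR = 6.16e-09). Without any 1 of the other 6 libraries the FDR was 0.0738 to 0.0988, above the limit. After adhesion, the log2 difference was 0.46 without WT replicate 1 (FDR = 4.14e-05) and 0.77 without WT replicate 2 (FDR = 1.81e-08), the latter past the fold limit too, whereas without any 1 of the other 6 libraries its FDR was 0.0938 to 0.248.

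*Traf2*, the adaptor that joins cIAP1 and cIAP2 to TRAF3, had 25.5 and 28.1 CPM in WT before adhesion, 16.2 and 38.3 CPM in WT after adhesion, 24.3 and 26.5 CPM in E6 before adhesion and 41.3 and 36.6 CPM in E6 after adhesion. The WT libraries after adhesion were the lowest and the second highest of all 8, while both E6 libraries after adhesion lay above both E6 libraries before adhesion. The change from before to after adhesion was 0.62 in E6 (SE 0.34, FDR = 1.0) and 0.03 in WT (SE 0.34, FDR = 0.972). E6 differed from WT by -0.08 before adhesion (SE 0.34, FDR = 0.944) and by 0.51 after adhesion (SE 0.34, FDR = 0.353). The WT values depended on single libraries. Without WT after adhesion replicate 1, the change in WT was 0.51 (FDR = 0.00797) and the difference of E6 from WT after adhesion 0.06 (FDR = 0.707). Without WT after adhesion replicate 2 they were -0.74 (FDR = 7.49e-05) and 1.29 (FDR = 1.87e-08). The change in E6 was 0.64 (FDR = 3.65e-05) and 0.62 (FDR = 6.43e-05) without these libraries in turn, and DE in both fits. The fit then takes its spread from the other 3 groups and assumes that the lone WT library varies like them. *Traf6*, the adaptor of the canonical branch, had 48.1 and 48.4 CPM in WT before adhesion, 64.0 and 46.7 CPM in WT after adhesion, 45.7 and 48.5 CPM in E6 before adhesion and 50.2 and 53.5 CPM in E6 after adhesion. Its log2 differences were at most 0.20 in size over the 7 comparisons, and at most 0.40 without WT after adhesion replicate 2. Both E6 libraries after adhesion lay above both before adhesion, and WT after adhesion replicate 1 was the highest of all 8.

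*Map3k14*, which encodes NIK, had 17.7 and 21.6 CPM in WT before adhesion, 18.6 and 31.1 CPM in WT after adhesion, 14.2 and 17.6 CPM in E6 before adhesion and 18.3 and 22.5 CPM in E6 after adhesion. In E6 both libraries after adhesion lay above both before adhesion, and in WT the groups overlapped. Averaged over the cell types, the level after adhesion differed from that before by 0.35 (SE 0.19, FDR = 0.607), and averaged over conditions E6 differed from WT by -0.30 (SE 0.19, FDR = 0.305). Without WT after adhesion replicate 1 these values were 0.52 (FDR = 0.000653) and -0.43 (FDR = 0.000648), and without replicate 2 0.14 (FDR = 0.286) and -0.06 (FDR = 0.618). With the GC correction E6 differed from WT by -0.40 (FDR = 0.0408). The change in WT was 0.35 (SE 0.26, FDR = 0.641), which became 0.67 (FDR = 0.00775) without WT after adhesion replicate 1 and -0.09 (FDR = 0.679) without replicate 2. Its exons share 135 bases (2.06%) with those of 1700028N14Rik on the same strand, and no other member shares exon bases with a gene of the annotation. *Chuk*, which encodes IKKα, was the steadiest of the 6, with 69.3 to 81.9 CPM in all libraries, a factor of 1.18, and log2 differences of at most 0.14 in size, or 0.23 without WT after adhesion replicate 2.

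**Figure D2:**
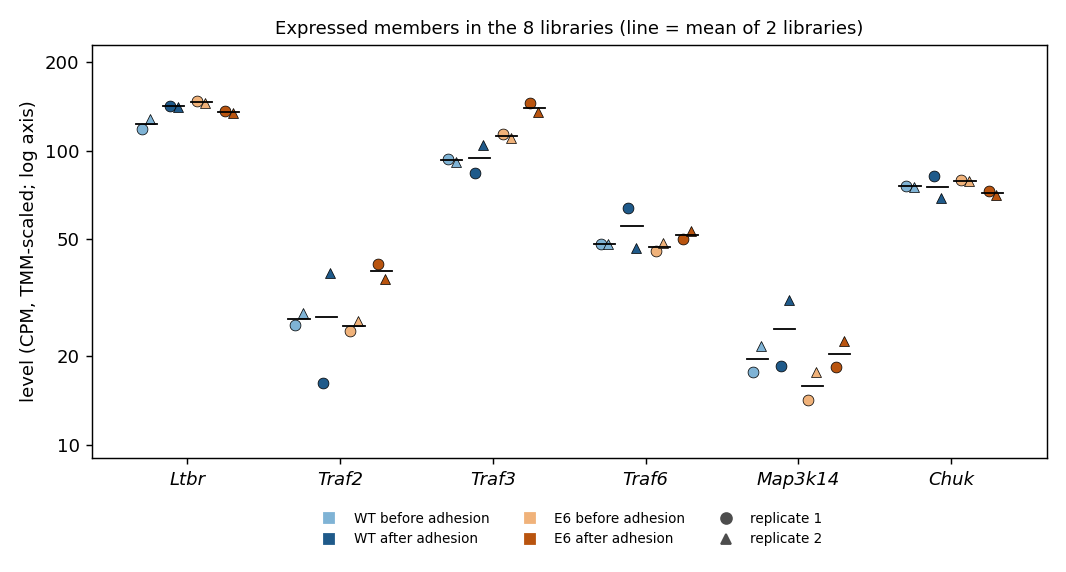
TMM-scaled CPM on a log axis of the 6 tested members in each of the 8 libraries, coloured by group, with a circle for replicate 1, a triangle for replicate 2 and a line for the mean of 2. *Traf3* is higher in all E6 libraries than in all WT libraries, and *Traf2* is spread from 16.2 to 38.3 CPM in WT after adhesion.

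DE mRNAs had an FDR under 0.05 over all tested genes and an FC of at least 1.5. By this rule 0 of the 6 tested members were DE in each of the 7 comparisons. The share of all 11672 tested genes that was DE was 11.3% for E6 against WT averaged over conditions, 5.01% before adhesion and 8.9% after adhesion. For the adhesion effect it was 0.0% in WT cells, 2.0% in E6 cells and 1.89% averaged over the cell types, and for the difference of the adhesion effects 0.0%. At an unadjusted p under 0.05, *Traf3* passed in the averaged comparison of the cell types and after adhesion, *Ltbr* before adhesion and *Traf3* for adhesion in E6, and 0 members passed in the other 3. The background shares at that limit were 35.3%, 29.7%, 21.6% and 6.97%, and in the other 3, adhesion in WT, adhesion averaged and the difference, 7.48%, 9.89% and 2.54%. DESeq2 called *Traf3* after adhesion and 0 members in the other 6 comparisons. The median log2 difference of the 6 was 0.04 for E6 against WT averaged over conditions, against -0.01 over all tested genes, and 0.17 for adhesion averaged over the cell types, against 0.00.

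**Figure D3:**
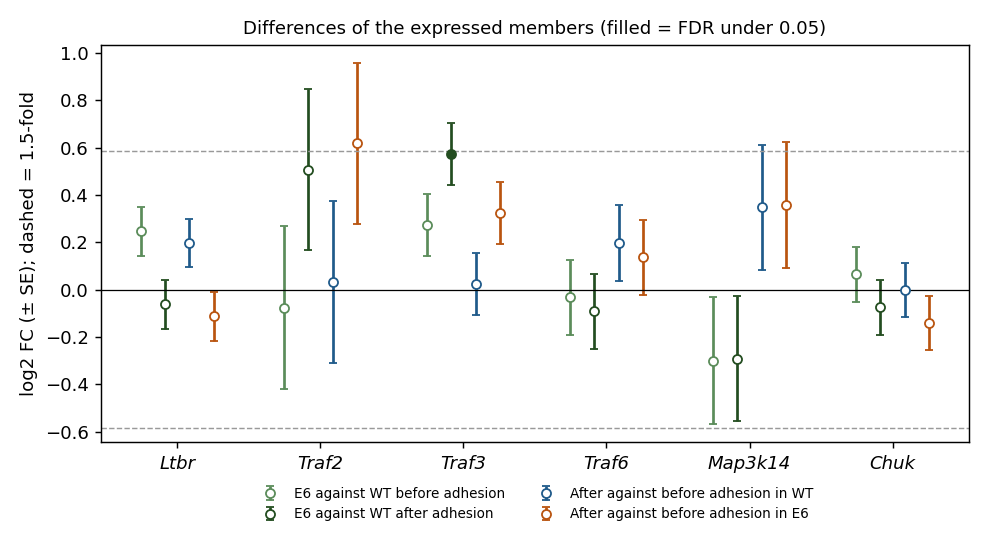
Log2 FC of the 6 tested members in 4 comparisons, with bars of 1 SE, filled where the FDR is under 0.05 and with dashed lines at 1.5-fold. Of these points *Traf3* after adhesion is the filled one, at 0.57, just under the dashed line.

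The other genes of the pathway were a list of 47 genes in 8 roles, 35 of which were tested. The list was drawn up with earlier results of these data known. Between the cell types averaged over conditions 3 were DE, all higher in E6 (8.57% of the tested list). Of all tested genes 5.22% were DE and higher in E6 and 6.13% DE and lower. These were *Vcam1* (log2 difference 2.06, SE 0.24, FDR = 0.00196) and *Icam1* (1.54, SE 0.30, FDR = 0.0125), adhesion molecules that NF-κB induces, and *Relb* (1.28, SE 0.26, FDR = 0.0155), the partner of the processed *Nfkb2* product. *Vcam1* had 0.425 and 0.442 CPM in WT before adhesion and 2.22 and 2.09 CPM in E6 before adhesion, and the groups did not overlap. *Relb* had 2.61 and 3.69 CPM in WT before adhesion and 9.71 and 7.18 CPM in E6 before adhesion. After adhesion it had 5.89 and 12.87 CPM in WT and 20.77 and 20.85 CPM in E6. It did not pass the edgeR test before adhesion alone (FDR = 0.0805) or after adhesion alone (FDR = 0.0808). *Vcam1* was DE in each of the 8 fits that left out 1 library, and it alone was DE without E6 after adhesion replicate 2, E6 before adhesion replicate 1 or either WT library before adhesion. Without E6 after adhesion replicate 1 *Relb* was not called, and without E6 before adhesion replicate 2 *Icam1* was not, while without WT after adhesion replicate 2 the count was 7. The median log2 difference over the 35 genes was 0.15, against -0.01 over all tested genes.

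Before adhesion 2 of the 35 were higher and 1 lower in E6, where 2.45% of all tested genes were DE and higher and 2.56% DE and lower. *Vcam1* was higher by 2.29 (SE 0.38, FDR = 0.0196) and *Jun*, a subunit of AP-1, by 0.97 (SE 0.15, FDR = 0.0162). *Nfatc1*, a transcription factor that RANK signals induce in osteoclasts, was lower in E6 with a log2 difference of -0.61 (SE 0.12, FDR = 0.0320). *Jun* had 48.1 and 53.3 CPM in WT and 91.4 and 106.8 CPM in E6, and *Nfatc1* 68.3 and 80.1 CPM in WT and 48.1 and 49.5 CPM in E6. Without any 1 of the 4 libraries before adhesion 0 of the 35 genes were DE, and without either WT library after adhesion 7 were.

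After adhesion 6 of the 35 were higher and 1 lower in E6, where 4.84% of all tested genes were DE and higher and 4.06% DE and lower. The higher genes were *H2-Aa*, a chain of the class II molecule that presents antigen, *Icam1*, *Ltb*, *Vcam1*, *Birc3* and *Tnfaip3*, and *Jun* was lower. *Birc3*, which encodes cIAP2, had 1.49 and 1.35 CPM in WT and 3.53 and 3.70 CPM in E6 (log2 difference 1.35, SE 0.28, FDR = 0.0288). *Tnfaip3*, which encodes the NF-κB inhibitor A20, had 126.1 and 133.7 CPM in WT and 206.8 and 213.9 CPM in E6 (0.70, SE 0.13, FDR = 0.0222). Both genes were higher in both E6 libraries than in both WT libraries. *Vcam1* differed by 1.82 (SE 0.28, FDR = 0.0129), *Icam1* by 2.23 (SE 0.39, FDR = 0.0185) and *Jun* by -0.59 (SE 0.15, FDR = 0.0485). *H2-Aa* had 3 counts in WT and 38 in E6, a ratio of 13.2 with a counting interval of 4.18 to 66.7. Like *Ltb*, it passed the low-count filter only with E6 after adhesion, the group in which both were high. Their calls are thus partly set by the filter. The thymocyte markers were also higher in E6 than in WT after adhesion. The sum of all 10 dendritic cell and macrophage genes, most of it *Csf1r*, overlapped between them. Of the 7 tested genes of that list, 3 were DE and higher in E6 and 0 lower. The 7 genes chosen as low before adhesion summed to 1.35 to 1.89 CPM in WT and 8.78 to 12.6 CPM in E6. The part of such cells in these differences was not tested. The count fell to 0 without either E6 library after adhesion, to 3 without either E6 library before adhesion and to 1 without either WT library before adhesion, and it was 9 without WT after adhesion replicate 1 and 19 without replicate 2, where *Jun*, at -0.46, was not DE.

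The ligands were nearly silent in these cells. *Tnfsf11*, which encodes RANK ligand, and *Cd40lg*, which encodes CD40 ligand, had 0 counts in all 8 libraries. *Lta*, the α chain of lymphotoxin, had 2 and 0 counts in WT before adhesion, 1 and 2 counts in WT after adhesion, 4 and 4 counts in E6 before adhesion and 3 and 6 counts in E6 after adhesion. *Tnfsf14*, which encodes LIGHT, had 1 count in each library of E6 after adhesion and 0 in the other 6. *Ltb*, the β chain that anchors lymphotoxin to the membrane of lymphocytes, had 0 counts in all 4 libraries before adhesion, 5 and 12 counts in WT after adhesion and 33 and 37 counts in E6 after adhesion. Over the groups, the counted level of *Ltb* after adhesion was 4.90 times the floor of 3 counts before adhesion in WT and 23.1 times it in E6. The ratio of E6 to WT after adhesion was 4.28 (counting interval 2.49 to 7.76). *Ltb* moved with the thymocyte genes, whose sum in E6 was at most 1.04 CPM before and 91.0 to 113 CPM after adhesion. The part of thymocyte RNA in *Ltb* was not tested.

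From before to after adhesion in E6, 8 of the 35 genes were higher and 0 lower, 22.9% of the tested list, against 1.93% of all tested genes DE and higher and 0.0771% DE and lower. The *IκB* genes *Nfkbia* and *Nfkbie*, whose products hold NF-κB dimers in the cytoplasm, rose by 3.19 (SE 0.44, FDR = 0.0163) and by 3.34 (SE 0.28, FDR = 0.00568). *Nfkbia* had 13.3 and 12.9 CPM before and 82.7 and 156.0 CPM after adhesion. *Birc3* rose by 3.30 (SE 0.34, FDR = 0.00744), *Tnfaip3* by 1.17 (SE 0.13, FDR = 0.00876) and *Vcam1* by 1.60 (SE 0.28, FDR = 0.0375). *Traf1*, an adaptor that binds TRAF2, had 1 and 0 counts before and 30 and 28 counts after adhesion, a ratio of 57.4 with a counting interval of 9.90 to 2305. *H2-Aa*, with 0 counts before adhesion, had a counted level after it of 12.5 times the floor of 3 counts over the group. *Ltb* was the eighth gene. *Ltb*, *H2-Aa* and *Traf1* had at most 12 counts in any library outside E6 after adhesion and passed the low-count filter only with that group. Their calls, and their part in the 22.9%, are thus partly set by that filter, which all tested genes passed. In the same comparison 12 of the 14 tested thymocyte genes and 3 of the 7 tested dendritic cell and macrophage genes were DE and higher. The part of such cells in the rise of the 8 genes was not tested. *Relb* (1.31, SE 0.35, FDR = 0.203) and *Nfkb2* (1.06, SE 0.25, FDR = 0.110) did not pass the test. *Nfkb2* had 93.2 and 87.3 CPM before and 183.8 and 193.3 CPM after adhesion in E6, groups that did not overlap. The members *Traf2*, *Traf3*, *Map3k14*, *Traf6*, *Ltbr* and *Chuk* were not among the called genes, and the kinases and other receptors of the list gave 0 calls. Without any 1 of the 4 E6 libraries the count was 0, and without either WT library after adhesion it was 13, with *Relb* (1.34 and 1.33) and *Nfkb2* (1.09 and 1.07) among them.

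In WT cells 0 of the 35 genes were DE between before and after adhesion, as were 0.0% of all tested genes. An unadjusted p under 0.05 was found for 12 of the 35, against 7.48% of all tested genes. DESeq2 called 6, and its share over all genes is not given here. *Nfkbia* had 17.98 and 14.67 CPM before and 46.3 and 103.5 CPM after adhesion (log2 change 2.20, SE 0.43, FDR = 0.244), *Nfkbie* 1.82 and 1.70 CPM before and 4.90 and 7.45 CPM after adhesion (1.82, SE 0.26, FDR = 0.216). *Tnfaip3* (0.71, SE 0.13, FDR = 0.244), *Vcam1* (2.07, SE 0.39, FDR = 0.244), *Relb* (1.60, SE 0.39, FDR = 0.404) and *Birc3* (0.87, SE 0.33, FDR = 0.620) were likewise not called, nor was *Nfkb2* (0.47, SE 0.25, FDR = 0.620). For *Nfkbia* and *Nfkbie* both WT libraries after adhesion were above both before. *Traf1* had 8 and 6 counts before and 10 and 11 counts after adhesion. Genes of the list were called without either WT library after adhesion. Without replicate 1 the changes of *Nfkbia*, *Relb* and *Nfkb2* were 2.65, 2.04 and 0.83. Without replicate 2 they were 1.48 for *Nfkbia*, 0.91 for *Relb* and -0.04 for *Nfkb2*. These comparisons of WT and E6 each have their own controls, and the difference of the adhesion effects was DE for 0 of the 35 genes. An unadjusted p under 0.05 was found for 5 of the 35, against 2.54% of all tested genes, and DESeq2 called 1. The called genes of E6 are thus not shown to respond differently from WT. More genes of the list were DE for this difference without either WT library after adhesion, where the shared estimate of the spread changed for all genes.

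Averaged over WT and E6, 9 of the 35 genes were higher after adhesion and 0 lower, 25.7% of the tested list, against 1.79% of all tested genes DE and higher and 0.103% DE and lower. They were *Ltb*, *Traf1*, *Nfkbia* (2.70, SE 0.31, FDR = 0.00866), *Nfkbie*, *Birc3*, *Vcam1*, *Relb* (1.45, SE 0.26, FDR = 0.0420), *Tnfaip3* (0.94, SE 0.09, FDR = 0.00549) and *Jun* (0.59, SE 0.11, FDR = 0.0415). The average hides opposite signs for *Jun*, whose change was 1.37 in WT (SE 0.15, FDR = 0.216) and -0.19 in E6 (SE 0.15, FDR = 1.0). These changes differed by -1.56 (SE 0.21, FDR = 0.988), and *Jun* was the 1 gene of the list that DESeq2 called for this difference. This difference was -1.63 (FDR = 2.6e-07) and -1.44 (FDR = 2.18e-08) without WT after adhesion replicates 1 and 2 in turn, and without replicate 2 the average, 0.54, was not DE. *Jun* had 122.2 and 140.2 CPM in WT after adhesion against 78.7 and 95.7 CPM in E6 after adhesion. The median log2 change over the 35 genes was 0.31, against 0.00 over all tested genes. *Ltb* and *Traf1* passed the low-count filter only with E6 after adhesion, where they were high. Their part in the 25.7% is thus partly set by the filter. The part of thymocytes and other added cells in the rise of the 9 genes was not tested here either. Leaving out 1 library gave 2 to 4 called genes without any 1 of the 4 E6 libraries or the 2 WT libraries before adhesion, and 12 and 13 without WT after adhesion replicates 1 and 2. *Nfkbie* and *Tnfaip3* were called in each of these 8 fits. Of the maturation genes, *Ccl19* and *Ccl21a* had 0 counts in all libraries, and *Ciita*, the regulator of class II genes, had 5 and 3 counts in E6 after adhesion and 0 elsewhere.

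**Figure D4:**
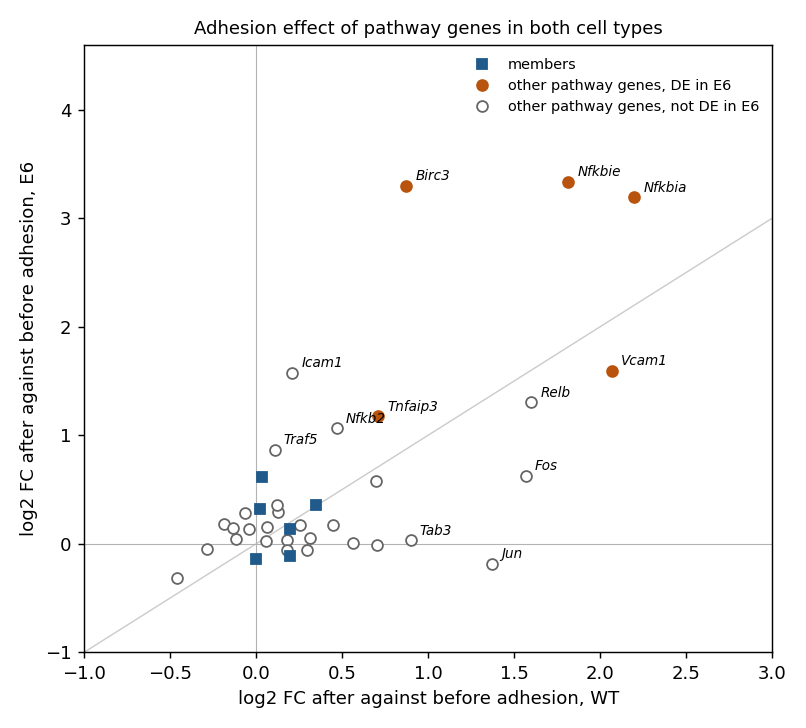
Log2 FC of after against before adhesion in WT (horizontal) and in E6 (vertical) for the 6 tested members and for 32 of the 35 other tested pathway genes, with a grey line where both are equal. *Traf1*, *Ltb* and *H2-Aa*, with at most 3 counts in a group before adhesion, are left out. The members lie between -0.14 and 0.62 on both axes, while *Nfkbia*, *Nfkbie* and *Birc3* lie above 3 in E6.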

How the data were processed

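The authors sequenced stranded libraries (made with an mRNA kit per the labels and a total RNA kit per the study's methods), aligned the reads to mm10 with STAR (version 2.5.0a in the submitters' processing notes) and deposited, for each of 8 libraries, the HTSeq count of reads per gene symbol, without normalization. The annotation and strand setting of the counting are not given in the sources used here. Rows that name no gene (21.24% to 33.29% of the reads) were left out, and 18 symbols turned into dates in E6 before adhesion replicate 1 were restored from the gene order. The 10 members and all lists of genes and markers were chosen with earlier results of these data known.

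Counts were filtered with filterByExpr, scaled by TMM (factors 0.9377 to 1.0275) and fitted by quasi-likelihood in edgeR 4.0.16 (R 4.3.3) with 1 mean for each of the 4 groups. SEs were derived from the test's F statistic. FDRs are Benjamini-Hochberg values over 11672 tested genes. RPKM used exon lengths of GENCODE vM21 on GRCm38, to which 22740 symbols matched directly, 913 by an older symbol and 399 not at all. Promoters came from RefSeq. Named were the 10 members, the DE genes of the pathway list (at most 12 per comparison), the ligands, *Nfkbia*, *Nfkb2*, *Relb*, *Tnfaip3*, *Birc3*, *Traf1* and *Aire*, and the 3 genes most like *Ltbr* in pattern. Other genes are named beside these where a count of few genes or a marker list needed them. Alternatives were RLE factors, DESeq2 1.42.0, no filter, no FC limit, a replicate block, a GC correction with and without it, only the 4 libraries compared, and each library left out. The scripts were tested on simulated counts with 200 changed genes. Without molecular identifiers, the intervals and floors describe counting error alone. Some marker genes were not analysed here.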

Additional observations from a re-analysis of the deposited data

Results flagged for a closer look

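In 3 genes of the pathway both libraries of WT after adhesion lay on 1 side of both before adhesion and both libraries of E6 on the opposite side. The share of all tested genes with this pattern was not computed, so the number of genes is not a result about the pathway. For *Ltbr* the difference of the adhesion effects, E6 minus WT, was -0.31 on the log2 scale (SE 0.15, edgeR FDR = 0.988). For *Traf4*, an adaptor of the same family as *Traf2*, it was -0.24 (SE 0.14, FDR = 0.988), with 78.9 and 80.3 CPM in WT before and 93.0 and 87.2 CPM after adhesion, against 88.1 and 85.6 CPM in E6 before and 84.9 and 82.1 CPM after adhesion. For *Ikbkb*, which encodes IKKβ, it was 0.28 (SE 0.15, FDR = 0.988), with 87.8 and 84.7 CPM in WT before and 77.6 and 79.8 CPM after adhesion, against 89.9 and 87.2 CPM in E6 before and 93.3 and 102.8 CPM after adhesion. None of the 3 passed the interaction test.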

How the results depend on the processing

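With 2 libraries per group, 159 of 218 recomputed counts of DE members or pathway genes were within 1.5 times their value and 59 were not, and 768 of 942 recomputed log2 FCs kept their direction and call. *Traf3* accounted for the 1 member DE in E6 against WT after adhesion with RLE factors, with DESeq2, with no filter and with no FC limit, and for the 1 in the averaged comparison with no FC limit. *Traf2* was the 1 member DE for adhesion in E6 when only the 4 libraries compared were fitted. Leaving out 1 library gave 0 to 1 DE members for E6 against WT averaged (*Traf2* without WT after adhesion replicate 2), 0 to 2 after adhesion (*Traf2* and *Traf3* without the same library), 0 to 1 for adhesion in WT (*Map3k14* without WT after adhesion replicate 1, *Traf2* without replicate 2), 0 to 1 for adhesion in E6 (*Traf2* without either) and 0 to 1 for the difference (*Traf2* without replicate 2). For adhesion in WT the log2 change ranged from -0.16 to 0.17 for *Traf3*, from -0.74 to 0.51 for *Traf2* (-0.04 without WT before adhesion replicate 1) from -0.09 to 0.67 for *Map3k14* and from -0.04 to 0.83 for *Nfkb2* when 1 library was left out, each reversed without WT after adhesion replicate 2. The cause was not tested.

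The deviations of same-numbered libraries were only weakly correlated in WT before and after adhesion (r = 0.187 over 10292 genes). In E6 they were not positively correlated (r = -0.056), so the numbers were not taken to pair the samples. With the replicate block the *Traf2* change in WT was -0.02, the FDR of *Traf3* after adhesion 0.0625, and the DE genes of the pathway list 4 instead of 7 after adhesion and 5 instead of 8 for adhesion in E6. Those counts were 4 with no filter and 0 with only 4 libraries after adhesion, and 13 with only 4 libraries for adhesion in E6. For adhesion in WT DESeq2 called 6 instead of 0, and for the difference 1 instead of 0. For E6 against WT before adhesion the count was 5 instead of 3 with DESeq2 or only 4 libraries and 6 with the GC correction, and for the averaged comparison 5 with the GC correction and 7 with no FC limit. Depth limits what can be said of *Tnfrsf11a*, *Tnfrsf11b*, *Cd40* and *Cd80*, which had at most 6 counts in any library. Without either WT library after adhesion, the group with the widest spread in *Traf2*, *Traf3* and *Map3k14*, FDRs also fell in comparisons that do not use that group, such as *Ltbr* before adhesion, since all groups share 1 estimate of the spread. Counts of called list genes in the alternative fits, with another setting or without a library, stand without the share of all tested genes in that fit. They describe how the calls depend on the settings and libraries, not a trait of the pathway.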
